A study of Mus musculus with 6 samples.

Results

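The genes described here are 3 of the mouse major histocompatibility complex (MHC) class II pathway, Cd74, H2-Aa and H2-Eb1. They were taken by name, and all 3 had a row in each count table, out of 12718 genes in all. Occupancy by RPB1, the catalytic core subunit of RNA polymerase II, was read out by ChIP-seq, in which DNA bound by a protein is pulled down with an antibody, here one against the RPB1 N-terminus, and sequenced. The tissue was adrenal glands of 3 Armc5 knockout (Armc5 -/-) mice and 3 wild-type (WT) mice. All 6 were female and 10 to 14 months old, from crosses of 129 sv with CD1, each with its own mouse number, and the labels name no treatment. Armc5 encodes an armadillo-repeat protein, and the labels state neither which cells lack it nor the haplotype of each mouse at the H2 locus. The row of Armc5 itself was not analysed here.

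MHC class II molecules are pairs of an alpha and a beta chain that carry peptides from endosomes to the cell surface, where CD4+ T cells read them. H2-Aa encodes the alpha chain of the I-A molecule, H2-Eb1 the beta chain of the I-E molecule, and Cd74 the invariant chain, which escorts new class II pairs to endosomes and blocks their groove until it is degraded there. Dendritic cells, B cells and activated macrophages make them, under the coactivator Ciita, which acts through factors bound to the X and Y boxes of class II promoters. Whole glands were measured, so fewer cells that transcribe a gene and less RPB1 on it per cell cannot be told apart.

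H2-Aa (gene ID 14960) lies on chromosome 17 at 34282744 to 34287823, and H2-Eb1 (gene ID 14969) at 34305867 to 34316674 of the same chromosome, 18044 bp away. The 250 bases before the annotated start of the 2 H2 genes are shown because they hold matches to the X and Y boxes named above. They are from RefSeq (GRCm38.p6), with H2-Aa at chr17:34287824-34288073 on the minus strand and H2-Eb1 at chr17:34305617-34305866 on the plus strand. Whether the promoter of Cd74 holds matches to these boxes is not reported here. Capitals mark matches to the motifs named after them.
H2-Aa: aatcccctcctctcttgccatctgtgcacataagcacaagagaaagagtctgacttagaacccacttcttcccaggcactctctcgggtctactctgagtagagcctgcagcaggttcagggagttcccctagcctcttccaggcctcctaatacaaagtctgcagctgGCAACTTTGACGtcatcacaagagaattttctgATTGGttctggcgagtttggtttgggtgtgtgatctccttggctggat
H2-Eb1: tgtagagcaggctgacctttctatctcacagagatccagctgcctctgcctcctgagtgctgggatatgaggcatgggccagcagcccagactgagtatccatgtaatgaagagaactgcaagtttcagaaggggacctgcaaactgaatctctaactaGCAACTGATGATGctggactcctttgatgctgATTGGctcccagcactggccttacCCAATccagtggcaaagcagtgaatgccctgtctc

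The X box was searched on both strands as GNAAC followed 2 or 3 bases later by TGANG, letters written after these promoters had been read, and the Y box core as ATTGG, also on both strands. The X box match lay 81 to 70 bases before the start of H2-Aa and 91 to 79 bases before that of H2-Eb1. The nearest Y box match downstream on the same strand lay 48 to 44 bases before the start of H2-Aa and 59 to 55 before that of H2-Eb1. H2-Eb1 had another Y box match on the opposite strand, 35 to 31 bases before the start. Of 32851 promoter windows of this length, 1.49% held an X box match and 33.8% a Y box match, and 0.0913% held an X box match followed on the same strand by a Y box match within 40 bases. The order and strand asked of the pair followed the layout of these 2 promoters, so its low share does not measure how unusual they are. A match is a run of letters and was not tested for binding.

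The deposited counts gave summed totals of 17936275, 28190157 and 24714835 for knockout replicates 1, 2 and 3 and of 22203948, 14511177 and 26748906 for WT replicates 1, 2 and 3. Levels are given as CPM, the counts scaled to the size of each library within the table of a region. Knockout replicate 1 and WT replicates 1 and 2 had the fewest counts, and they are called the low-count libraries here. Markers of adrenal cells were read beside the tissue label as a description. They do not test it, since other lists taken up below also lay mostly above the median in both genotypes. These were class II transcription genes, 6 of 6, and class I pathway genes, 13 of 15. In gene body CPM per kb of annotated gene length, 8 of 9 adrenal cortex markers lay above the median of 12384 genes in the knockout and 8 of 9 in WT, and of the chromaffin markers 6 of 6 did in the knockout and 5 of 6 in WT.

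RPB1 at the 3 class II genes did not differ detectably between genotypes at the transcription start site (TSS), over the gene body or at the transcription end site (TES). Of the 9 log2 fold changes of knockout over WT, 7 were below 0 and 2 above it, from -0.45 to 0.05, and in each of the 9 the knockout and WT libraries overlapped. All 9 adjusted p-values were 0.935 or more (quasi-likelihood test of edgeR, Benjamini-Hochberg adjusted over all genes tested). Calls were made where the adjusted p was below 0.05. By that rule 0.339% of tested genes were called at the TSS, while the gene body had 0.252% and the TES 0.915%, and 0 of the 3 class II genes were called in any region.

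**Figure D1:**
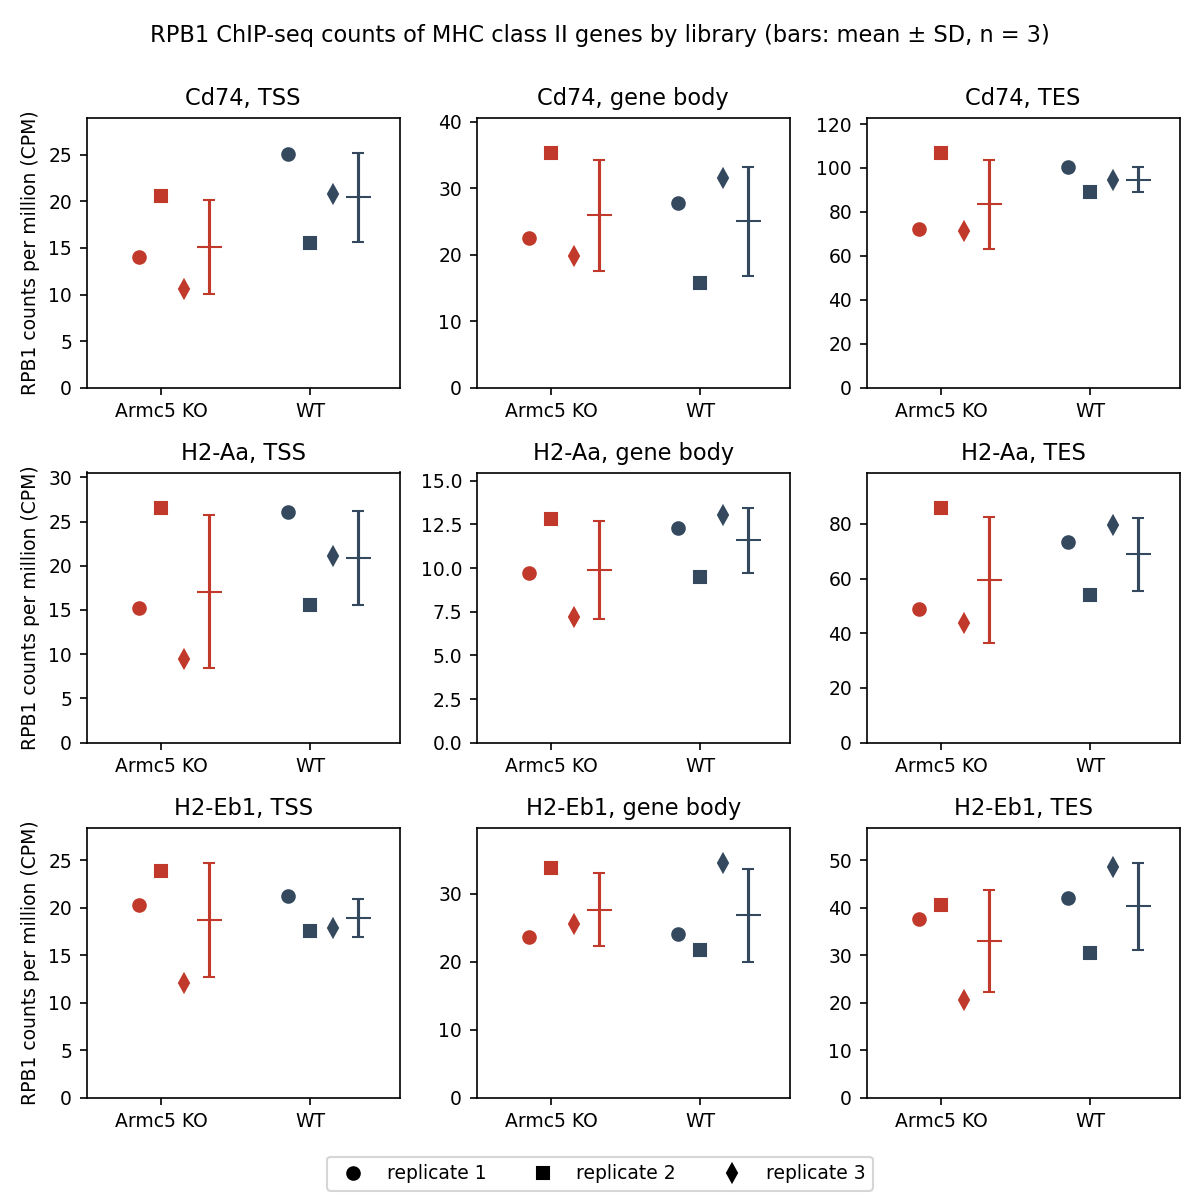
RPB1 CPM (y axis) of Cd74, H2-Aa and H2-Eb1 (rows) at the TSS, gene body and TES (columns) in each Armc5 knockout and WT library, with mean ± SD (n = 3). The knockout and WT points overlap in every panel, and knockout replicate 2 is the highest of the knockout libraries in all 9 panels.

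Cd74, the invariant chain gene, had 14.1, 20.5 and 10.6 CPM at the TSS in knockout replicates 1, 2 and 3, against 25.045, 15.5 and 20.8 CPM in WT replicates 1, 2 and 3. The lowest values were in knockout replicates 3 and 1, but knockout replicate 2 lay above WT replicate 2. The means were 15.1 ± 5.04 CPM in the knockout and 20.5 ± 4.78 CPM in WT (SD, n = 3 each). The log2 fold change was -0.45 ± 0.35 (SE), with a 95% confidence interval of -1.21 to 0.31 (edgeR quasi-likelihood test, adjusted p = 0.952). Among the low-count libraries knockout replicate 1 was below both WT libraries. Among the other 3, knockout replicate 2 was close to WT replicate 3 and knockout replicate 3 below it.

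Over its gene body Cd74 had 22.6, 35.3 and 19.8 CPM in the knockout libraries, against 27.7, 15.8 and 31.6 CPM in the WT libraries. The highest value was in a knockout library and the lowest in a WT library. The log2 fold change was 0.05 ± 0.30 (SE), with an interval of -0.65 to 0.74 (edgeR, adjusted p = 0.986). At the TES Cd74 had 72.0, 106.9 and 71.3 CPM in the knockout libraries, against 100.5, 89.2 and 94.5 CPM in the WT libraries. Knockout replicates 1 and 3 lay below all WT libraries and knockout replicate 2 above all of them. The TES log2 fold change was -0.18 ± 0.23 (SE), with an interval of -0.64 to 0.28 (edgeR, adjusted p = 0.972).

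H2-Aa, the I-A alpha chain gene, had 15.2, 26.6 and 9.51 CPM at the TSS in the knockout libraries, against 26.1, 15.5 and 21.1 CPM in the WT libraries. Both the highest and the lowest of the 6 values were in the knockout. The log2 fold change was -0.29 ± 0.39 (SE), with an interval of -1.16 to 0.57 (edgeR, adjusted p = 0.981). Its gene body had 9.73, 12.8 and 7.20 CPM in the knockout libraries, against 12.3, 9.48 and 13.0 CPM in the WT libraries, and again the groups overlapped. Over the gene body the log2 fold change was -0.23 ± 0.25 (SE), with an interval of -0.81 to 0.35 (edgeR, adjusted p = 0.935). At the TES it had 49.1, 85.9 and 43.8 CPM in the knockout libraries, against 73.3, 53.9 and 79.6 CPM in the WT libraries. Knockout replicate 2 was the highest of all and the other 2 knockout libraries the lowest. The TES log2 fold change was -0.22 ± 0.24 (SE), with an interval of -0.70 to 0.27 (edgeR, adjusted p = 0.969).

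H2-Eb1, the I-E beta chain gene, had 20.3, 23.8 and 12.1 CPM at the TSS in the knockout libraries, against 21.2, 17.6 and 17.9 CPM in the WT libraries. The means were 18.7 ± 6.02 CPM in the knockout and 18.9 ± 2.02 CPM in WT (SD, n = 3 each). The log2 fold change was -0.02 ± 0.33 (SE), with an interval of -0.74 to 0.71 (edgeR, adjusted p = 0.998). Over its gene body it had 23.7, 33.8 and 25.6 CPM in the knockout libraries, against 24.1, 21.8 and 34.6 CPM in the WT libraries, so that both groups spanned about the same range. Over the gene body the log2 fold change was 0.04 ± 0.22 (SE), with an interval of -0.47 to 0.56 (edgeR, adjusted p = 0.982). At the TES it had 37.6, 40.7 and 20.7 CPM in the knockout libraries, against 42.0, 30.4 and 48.5 CPM in the WT libraries. Knockout replicate 3 was the lowest, and knockout replicates 1 and 2 lay among the WT values. The TES log2 fold change was -0.32 ± 0.27 (SE), with an interval of -0.86 to 0.22 (edgeR, adjusted p = 0.959).

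The upper bounds of the 9 intervals lay between 1.16-fold and 1.67-fold. The lower bounds were 0.434-fold for Cd74 and 0.447-fold for H2-Aa at the TSS and at least 0.549-fold elsewhere. TSS counts were few. The lowest were 15 reads each for Cd74 and H2-Aa in WT replicate 2, with an exact 95% Poisson interval of 8.40 to 24.7 reads, and the highest was 97 reads for H2-Aa in knockout replicate 2, with an interval of 78.7 to 118. These intervals cover counting error only. At the TSS all 3 genes were lowest in knockout replicate 3 and, among knockout libraries, highest in knockout replicate 2, and this spread within the knockout exceeded the difference between the group means. The TSS log2 fold change of H2-Aa was -0.80 without knockout replicate 2 and -0.00099 without knockout replicate 3, and that of Cd74 was -0.76 and -0.24 without these libraries (edgeR, adjusted p of 0.99988 or more in each).

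**Figure D2:**
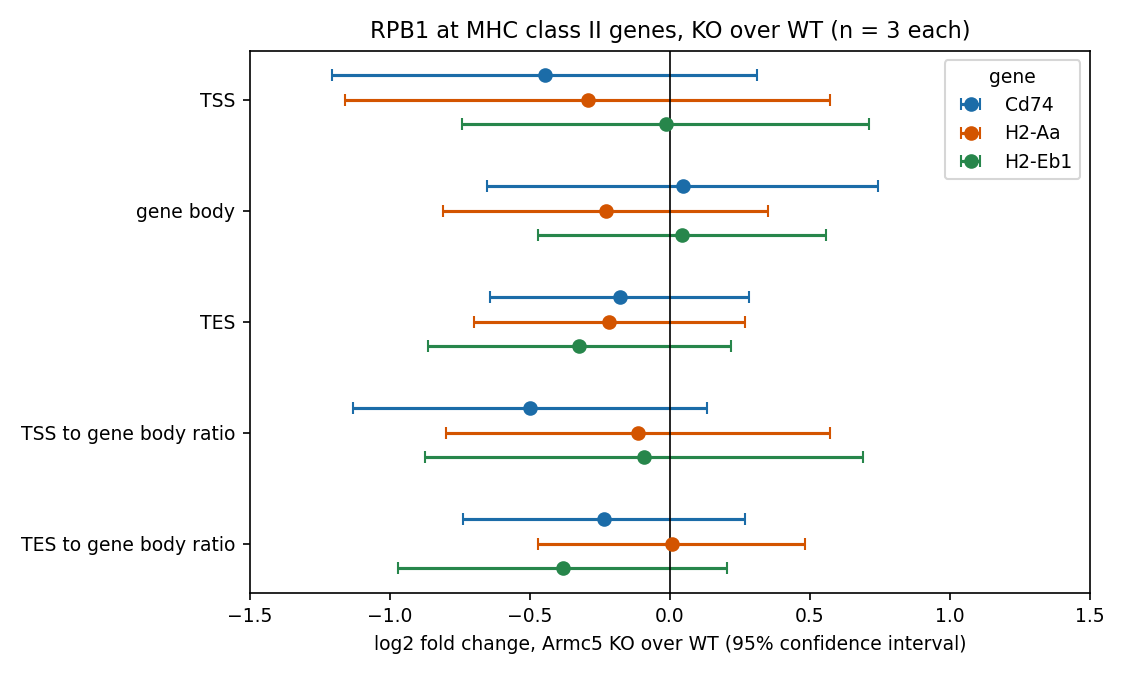
Log2 fold change of Armc5 knockout over WT (x axis) with 95% confidence intervals for Cd74, H2-Aa and H2-Eb1 in the 3 regions and for the 2 ratios of regions (n = 3 per genotype). All 15 intervals include 0, and those at the TSS are wider than those at the TES.

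The distribution of RPB1 along each gene was compared by the ratio of TSS or TES CPM to gene body CPM, a measure of how much polymerase sits at an end of the gene relative to its interior. For Cd74 the TSS ratio was 0.624, 0.581 and 0.535 in the knockout libraries, against 0.903, 0.983 and 0.659 in the WT libraries. All 3 knockout ratios lay below all 3 WT ratios, as they did for 5% of all genes tested. The log2 fold change of the ratio was -0.50 ± 0.28 (SE), with an interval of -1.13 to 0.13, and did not pass (edgeR, unadjusted p = 0.106, adjusted p = 0.955). With the scaling of the gene body table applied to both regions it was -0.16 (adjusted p = 0.813), a setting that moved the median of all genes by 0.36. At an adjusted p under 0.05, 0% of all TSS ratios were called (0 of 12679 by edgeR and 0 by limma; 462 had an unadjusted edgeR p under 0.05).

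The TSS ratios of H2-Aa were 1.56, 2.08 and 1.32 in the knockout libraries, against 2.13, 1.64 and 1.62 in the WT libraries. Those of H2-Eb1 were 0.855, 0.704 and 0.472 in the knockout libraries, against 0.881, 0.806 and 0.518 in the WT libraries. Both sets overlapped, with log2 fold changes of -0.11 and -0.09 and intervals of -0.80 to 0.57 for H2-Aa and -0.88 to 0.69 for H2-Eb1. For the TES ratio 0.0158% of genes were called, 2 of 12677, and 0 of the 3 class II genes. The log2 fold changes of the TES ratio were -0.23 for Cd74, 0.01 for H2-Aa and -0.38 for H2-Eb1, with adjusted p-values of 0.906, 0.999 and 0.871 (edgeR). The interval for H2-Eb1 was -0.97 to 0.20.

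In both genotypes the ratio of TES to TSS CPM of the 3 genes lay above the all-gene median. By mean TSS CPM, Cd74, H2-Aa and H2-Eb1 lay at percentiles 17.99, 20.3 and 22.1 of genes in the knockout. In WT they lay at 23.3, 23.7 and 21.6. By mean TES CPM they lay at 74.2, 59.8 and 32.8 in the knockout and at 80.2, 67.99 and 40.8 in WT. The ratio of H2-Eb1 thus went with a low TSS level, since its TES level was also below the median. The TES to TSS ratio of CPM was 5.12, 5.21 and 6.72 for Cd74 in the knockout libraries, against 4.01, 5.75 and 4.54 in the WT libraries. For H2-Aa it was 3.23, 3.23 and 4.60 in the knockout libraries, against 2.81, 3.48 and 3.77 in the WT libraries. For H2-Eb1 it was 1.85, 1.71 and 1.71 in the knockout libraries, against 1.98, 1.73 and 2.71 in the WT libraries. The order Cd74, H2-Aa, H2-Eb1 held in all 6 libraries, and the median over 12707 genes was 0.998 in the knockout and 1.04 in WT. By library, Cd74 lay between the 87.6th and the 95.7th percentile of these genes, H2-Aa between the 82.6th and the 89.5th and H2-Eb1 between the 68.0th and the 78.9th. CPM at each end is relative to that table's own total, and this is a description with no test. The pattern was shared with other genes. In both genotypes 11 of 11 macrophage and myeloid, 9 of 9 adrenal cortex and 6 of 6 chromaffin markers lay above the all-gene median. So did 4 of 5 endothelial markers and 4 of 7 genes of endosomal processing and turnover. Of 15 class I pathway genes, 10 did in the knockout and 11 in WT. Fewer did among interferon gamma signalling genes, 1 of 10, and class II transcription factor genes, 2 of 6. The sources used here do not give the widths of the TSS and TES windows.

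**Figure D3:**
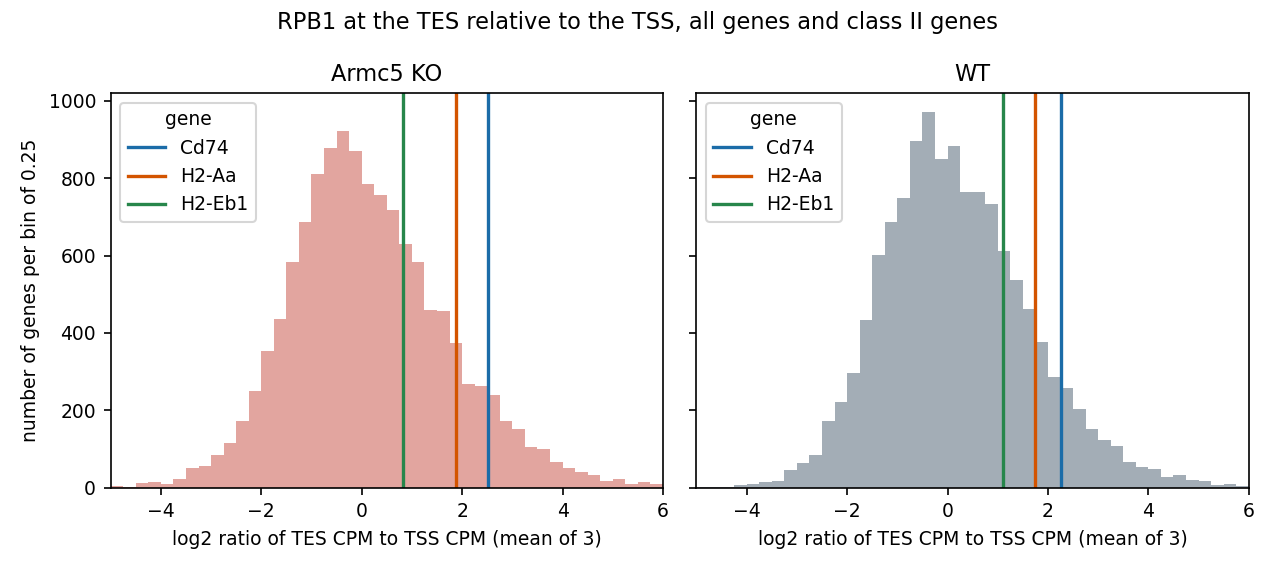
Number of genes (y axis) by the log2 ratio of TES CPM to TSS CPM (x axis, mean of 3 libraries) in Armc5 knockout and WT adrenals, with Cd74, H2-Aa and H2-Eb1 as vertical lines. The 3 lines lie above the medians of all genes, 0.998 in the knockout and 1.04 in WT before the log2, in the same order in both genotypes.

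Gene body levels were compared between genes per kb of annotated gene length. The sources used here do not give the width counted or any input correction, so these levels are approximate. Cd74 (gene ID 16149) lies on chromosome 18 at 60803849 to 60812652 (GRCm38.p6). Cd74 had 2.94 ± 0.942 CPM per kb in the knockout and 2.84 ± 0.936 CPM per kb in WT, H2-Eb1 had 2.56 ± 0.499 in the knockout and 2.48 ± 0.631 in WT, and H2-Aa had 1.95 ± 0.551 in the knockout and 2.28 ± 0.367 in WT (SD, n = 3 each). The median of 12384 genes with an annotated length was 1.73 CPM per kb in each genotype. Neighbours in this order differed by less than their SDs in both genotypes, except H2-Eb1 and H2-Aa in the knockout, whose libraries still overlapped. The means of the 3 genes lay above the median, that of H2-Aa in the knockout by less than its SD. They lay far under Star, the cholesterol carrier of steroid synthesis, which had 66.7 ± 6.92 CPM per kb in the knockout and 79.3 ± 37.0 in WT.

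Across the 6 libraries the gene body log2 CPM of Cd74 correlated with that of H2-Eb1 at r = 0.837 and with that of H2-Aa at r = 0.791, and H2-Aa and H2-Eb1 correlated at r = 0.586. These are descriptions over 6 libraries that share differences in depth. Of all genes tested, 5% had an r above 0.844 with Cd74, above 0.633 with H2-Aa and above 0.888 with H2-Eb1. The genes most like Cd74 were Sept7, Rsrc2, Ube2j1, Numa1 and Cdc42ep4 (Pearson's r from 0.983 to 0.995). Those most like H2-Aa were Pdxk, Desi1, Zfp292, Csnk2a1 and Fxr1 (0.943 to 0.963), and those most like H2-Eb1 were Akap8l, Polg, Ube3b, Vasp and Ampd3 (0.987 to 0.996). Tcof1, a nucleolar protein gene 1086 bp from Cd74, was the only annotated neighbour within 10 kb of the 3 genes that had a row, and their windows may share reads. Its TES log2 fold change was -0.0013 ± 0.24 (SE) and its TSS log2 fold change 0.05 ± 0.33, and neither passed (edgeR, adjusted p = 0.9997 and 0.994). Over the gene body its log2 fold change was -0.31 ± 0.15 (SE), with all knockout values below all WT values, as for 3.87% of genes, and did not pass (edgeR, unadjusted p = 0.0632, adjusted p = 0.934).

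Of 7 other class II chain and chaperone genes on the list, 2 had a row, both for subunits of H2-DM, the chaperone that exchanges the invariant chain fragment for peptide, and neither was called. H2-DMb1, its beta chain, had 6.19, 6.02 and 2.56 CPM at the TSS in the knockout libraries, against 13.1, 20.7 and 8.00 CPM in the WT libraries. At the TES it had 21.5, 25.6 and 14.8 CPM in the knockout libraries, against 33.1, 40.2 and 30.2 CPM in the WT libraries. In both regions all knockout values lay below all WT values, as for 4.93% of genes at the TSS and 4.83% at the TES. The log2 fold changes were -1.43 ± 0.51 and -0.73 ± 0.32 (SE) and did not pass (edgeR, adjusted p = 0.672 and 0.606). The TSS value rests on few reads, with 2.56 CPM in knockout replicate 3, whose TSS counts summed to 2594963. The gene body value was -0.63 ± 0.29 (adjusted p = 0.934), with overlapping groups. H2-DMa, its alpha chain, had log2 fold changes of 0.05 (TSS), 0.24 (gene body) and -0.27 (TES), none called. The annotation of H2-DMa overlaps that of Brd2, a chromatin reader gene, so its counts cannot be told apart from those of Brd2. H2-Ab1 and Ciita had no row and were not analysed here.

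Of 8 genes of class II transcription, which encode the coactivator Ciita and the RFX, NF-Y and CREB factors bound to the X and Y boxes, 6 had rows, all for such factors, and 0 were called in any region. Their median log2 fold changes were 0.04 (TSS), 0.06 (gene body) and 0.10 (TES), against -0.01, -0.02 and -0.02 over all genes. Rfx5, a subunit of the RFX complex, had values of 0.03, -0.01 and 0.16. Of the 3 costimulation genes with rows 0 were called.

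Among 7 genes of endosomal processing and turnover with rows, 1 was called, Ctsl at the TES. Ctsl encodes cathepsin L, a lysosomal protease that degrades the invariant chain in thymic epithelium. It had 74.3, 57.1 and 110.7 CPM at the TES in the knockout libraries, against 21.3, 29.4 and 18.4 CPM in the WT libraries, and the groups did not overlap. Its TES log2 fold change was 1.85 ± 0.26 (SE; edgeR, adjusted p = 9.71e-06). Its gene body value of 0.87 ± 0.23 did not pass (adjusted p = 0.365), nor did its TSS value of 0.22 ± 0.62 (0.991). Ctss, cathepsin S, which does this in dendritic cells and B cells, had log2 fold changes of 0.28 (TSS), -0.10 (gene body) and -0.23 (TES), none called.

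In the MHC class I pathway, which loads peptides from the cytosol, 15 of 15 genes had rows and 0 were called in any region. In the gene body 14 of the 15 had a log2 fold change above 0, with a median of 0.38 against -0.02 over all genes, 46.3% of which were above 0. The values at an unadjusted p under 0.05 numbered 5 of 15 there, namely Calr, H2-T23, Psmb8, Psmb9 and Tap1, against 5.05% of all genes. At the TES 13 of the 15 were above 0, with a median of 0.26, and at the TSS 9 of the 15, with a median of 0.03. The summed CPM of the 15 genes did not overlap at the TES, with 2283 to 2782 in the knockout libraries and 1562 to 2086 in the WT libraries. Of single genes, 6.69% had all knockout values above all WT values at the TES, and no such share was taken for sums. The sums overlapped at the TSS, with 1430 to 1490 in the knockout libraries and 1270 to 1460 in the WT libraries, and over the gene body, with 714 to 899 in the knockout libraries and 572 to 763 in the WT libraries. H2-K1, a classical class I heavy chain gene whose sequence resembles that of other H2 genes, so that reads may be split between them, had log2 fold changes of -0.17 (TSS), 0.33 (gene body) and -0.14 (TES), with adjusted p-values of 0.934 or more (edgeR). Of 10 interferon gamma signalling genes with rows, 0 were called, and their medians were 0.20, 0.09 and -0.02.

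**Figure D4:**
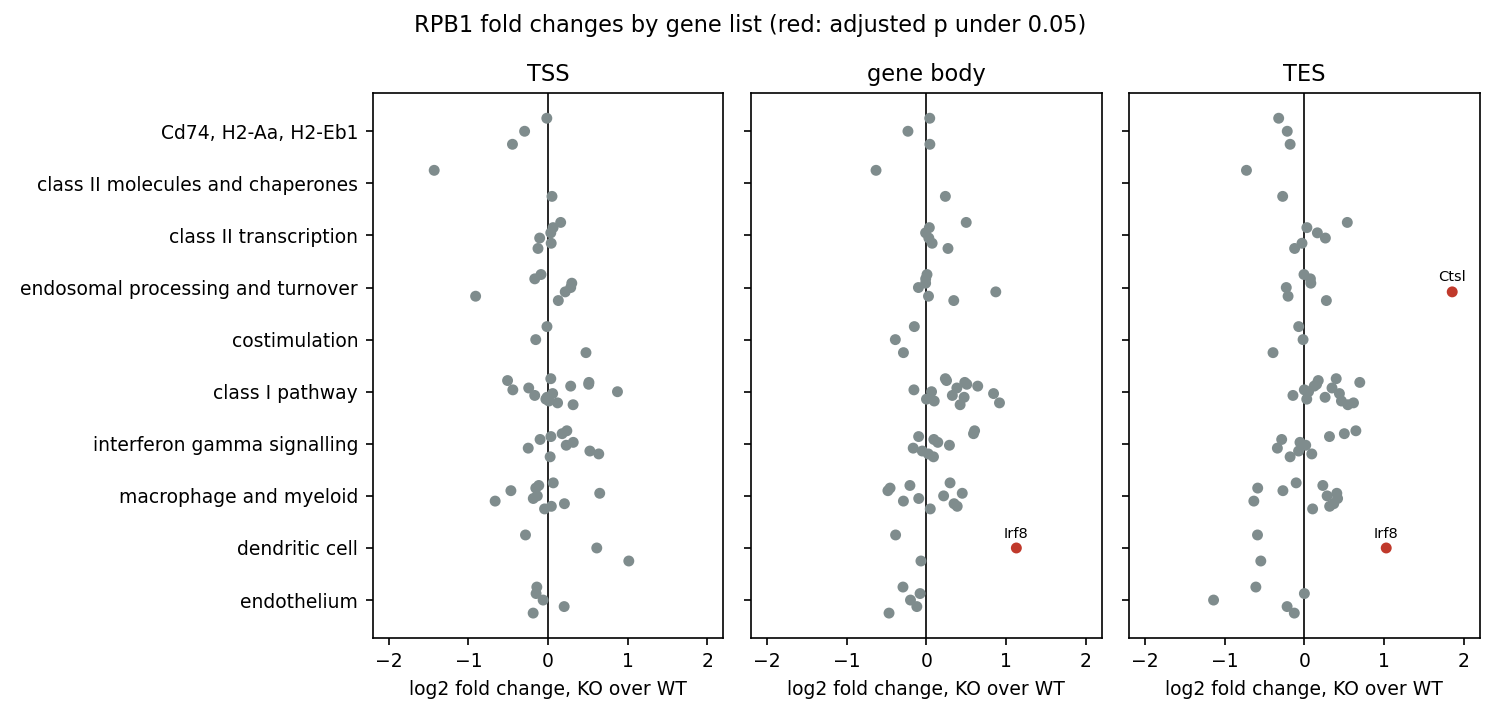
Log2 fold change of Armc5 knockout over WT (x axis) at the TSS, gene body and TES for Cd74, H2-Aa and H2-Eb1 and for the genes of 9 pathway or cell type lists (rows). Each point is a gene with a row. Red points were called, which were Ctsl at the TES and Irf8 at the TES and over the gene body.

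The cell types that present antigen were examined by their markers. Of 19 macrophage and myeloid markers 11 had rows, 0 were called and none of the 11 was at 0 counts in all libraries. Their summed gene body CPM was 193 to 217 in the knockout libraries and 196 to 244 in the WT libraries, which overlap. Their summed TES CPM was 869 to 954 in the knockout libraries and 702 to 811 in the WT libraries, with no overlap. Their TSS sums overlapped, with 206 to 236 CPM in the knockout and 207 to 275 CPM in WT. Of the 11 markers, 7 had a log2 fold change above 0 at the TES, 6 over the gene body and 4 at the TSS. At the TES 6.69% of single genes had all knockout values above all WT values, and no such share was taken for sums. Of 12 dendritic cell markers 3 had rows, and 1 was called. Irf8, a transcription factor of dendritic cells and macrophages, had 133.2, 139.0 and 128.2 CPM in the gene body in the knockout libraries, against 72.1, 54.6 and 56.0 CPM in the WT libraries. The log2 fold change over the gene body was 1.13 ± 0.15 (SE; edgeR, adjusted p = 0.0383) and the TES log2 fold change 1.03 ± 0.23 (adjusted p = 0.0117). The TSS value of 0.61 ± 0.17 did not pass (0.362). The gene body call of Irf8 ended with joint scaling of the regions and with the mouse number prefix as a covariate (adjusted p = 0.148 and 0.09997). Leaving out libraries ended it for knockout replicates 1, 2 and 3 in turn (0.141, 0.235 and 0.271), for WT replicates 1 and 3 in turn (0.141 and 0.0734) and for the low-count libraries together (0.144). Its gene body log2 fold change stayed close to 1.13 where the call ended, at 1.02 with joint scaling, 1.14 with the prefix, 1.26 without the low-count libraries and 1.06 to 1.27 over all omissions of 1 library. Its TES call ended with joint scaling (0.0553). Zbtb46, a dendritic cell factor, had log2 fold changes of -0.28 (TSS), -0.38 (gene body) and -0.59 (TES), none called. Irf4, the other marker with a row, had 1.01, -0.07 and -0.55, none called. The 3 markers, Irf8 among them, summed to 355 to 454 CPM (knockout) and 276 to 341 CPM (WT) at the TSS, without overlap. The gene body sums, 251 to 270 and 204 to 249, and TES sums, 206 to 230 and 179 to 202, did not overlap either. Of single genes, 6.47% (TSS), 6.51% (gene body) and 6.69% (TES) lay so, and no such share was taken for sums. Only 1 of the 3 markers, Irf8, had a log2 fold change above 0 over the gene body and at the TES, and 2 of 3 did at the TSS. The gene body and TES sums thus follow Irf8 and do not show a rise of the list. One marker each of B cells and of T and NK cells had a row, Cd37 and Lck, and neither was called. Cd37 had TSS log2 fold change -0.55 and Lck -0.65, and both had gene body values of 0.09 or less.

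Markers of the other cells of the gland were read beside the class II values. The summed gene body CPM of 6 chromaffin markers was 325, 873 and 454 in knockout replicates 1, 2 and 3, against 287, 242 and 464 in WT replicates 1, 2 and 3. Knockout replicate 2, highest of the knockout libraries for all 3 class II genes, was also highest for the chromaffin markers. The same held for the gene body sums of the adrenal cortex (4706 CPM), class I (899 CPM), interferon gamma, endosomal and class II transcription lists. It also held for the dendritic cell list, the H2-DM genes together and Cd37. It did not hold for the macrophage and myeloid markers, the costimulation genes or Lck, highest in knockout replicate 1. Nor did it hold for the endothelial markers, highest in knockout replicate 3. All 6 chromaffin markers had a log2 fold change above 0 over the gene body and at the TES, against 46.3% and 47.8% of all genes. Their medians were 0.81 and 0.63, and 0 were called. The 9 adrenal cortex markers summed to 3793 to 4706 CPM in the gene body in the knockout libraries and to 2426 to 5812 CPM in the WT libraries, and 0 were called. Of 5 endothelial markers with rows 0 were called. All 5 had a log2 fold change below 0 over the gene body and at the TES, with medians of -0.20 and -0.22. Their summed TES CPM was 226 to 237 in the knockout libraries and 250 to 332 in the WT libraries, with no overlap. At the TES 4.83% of single genes had all knockout values below all WT values, and no such share was taken for sums. The part of these cell types in the values of Cd74, H2-Aa and H2-Eb1 was not tested.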

How the data were processed

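The deposited tables hold read counts per gene at the TSS, over the gene body and at the TES, as whole numbers made by the authors, 1 table per region with 12718 genes each. Per the submitters' processing notes, the tools were MACS2, HOMER, BWA, Picard, Trimmomatic, bcl2fastq 2.20, limma and edgeR, with builds GRCm38 and mm10. The sources used here do not give window widths, the counting tool or any input correction. The deposited counts were not corrected for input here. A deposited table of all 3 regions held the same counts and served for joint scaling.

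Each region was fitted across all genes with edgeR 4.0.16 (R 4.3.3), using filterByExpr (minimum count 10, minimum total 15), TMM scaling and the quasi-likelihood F test on 3 knockout and 3 WT libraries, with calls at a Benjamini-Hochberg adjusted p under 0.05. Ratios of regions were tested as the region by genotype interaction with a term per library. CPM uses TMM-scaled table totals, and intervals are at 95%. For H2-Aa the p of the TSS ratio is bounded by edgeR at its Poisson value and is not printed. The scripts were tested on simulated data. Permuting 3 against 3 libraries cannot give a p under 0.1, so no permutation test was run. Alternatives included DESeq2 1.42.0 and limma 3.58.1.

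Genes were matched by symbol to RefSeq (GRCm38.p6), which gave 12384 of them a position. Named genes were the 3 class II genes, called genes of the lists, H2-Ab1, H2-DMa, H2-DMb1, Ciita, Ctss and H2-K1 whatever their values, the 5 genes most correlated with each class II gene among those of at least median CPM, and neighbours within 10 kb with a row. Rfx5, Calr, H2-T23, Psmb8, Psmb9, Tap1, Zbtb46, Irf4, Cd37, Lck and Star were named after their values were seen. The class II genes and the 13 lists were chosen with earlier results of these data known.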

Additional observations from a re-analysis of the deposited data

How the results depend on the processing

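Over the settings tried, the 5 values of each class II gene gave 219 alternative values, of which 189 kept their sign, 30 changed it and 0 passed the threshold. For H2-Eb1 at the TSS the log2 fold change was 0.084 with table totals, 0.24 with joint scaling, 0.031 with depth class, 0.024 without the low-count libraries and -0.25 to 0.22 leaving out 1 library. In the gene body, joint scaling, depth class and no low-count libraries gave -0.045, -0.079 and -0.18 for Cd74 (1 library left out, -0.24 to 0.24) and -0.049, -0.092 and -0.21 for H2-Eb1 (-0.12 to 0.27). The TSS ratio with gene body scaling was -0.16 for Cd74, 0.23 for H2-Aa (1 library left out, -0.33 to 0.041) and 0.25 for H2-Eb1 (-0.36 to 0.14), which was 0.12 with depth class. The TES ratio of H2-Aa was -0.0024 with gene body scaling, -0.0014 with limma, -0.0048 with the replicate block, -0.054 with depth class and -0.10 to 0.10 leaving out 1 library. Leaving out 1 library, the values that kept their sign spanned, at the TSS, -0.76 to -0.24 for Cd74 and -0.80 to -0.00099 for H2-Aa, over the gene body -0.46 to -0.056 for H2-Aa, and at the TES -0.40 to -0.074 for Cd74, -0.59 to -0.027 for H2-Aa and -0.53 to -0.065 for H2-Eb1. The TSS ratio of Cd74 spanned -0.68 to -0.41, and the TES ratio -0.43 to -0.020 for Cd74 and -0.59 to -0.14 for H2-Eb1. The lowest TSS values of Cd74 and H2-Aa and the lowest TES value of H2-Aa (edgeR, adjusted p = 0.833) were those without knockout replicate 2. Scaling moved the median of all genes by 0.10 at the TSS with table totals, by 0.25 (TSS), -0.10 (gene body) and -0.10 (TES) with joint scaling, and by 0.36 for the TSS ratio with gene body scaling.

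Among the other genes, H2-K1 at the TSS was 0.092 with joint scaling, 0.0089 without the low-count libraries and -0.29 to 0.042 leaving out 1 library. H2-DMa was -0.047 with depth class and -0.082 without the low-count libraries at the TSS (-0.031 to 0.18 leaving out 1) and -0.045 without them in the gene body. Ctss was -0.13 to 0.95 at the TSS leaving out 1 library, 0.16 in the gene body without the low-count libraries (-0.22 to 0.065 leaving out 1), and at the TES 0.0015 with limma-voom, 0.13 with depth class, 0.38 without the low-count libraries and -0.56 to 0.091 leaving out 1. Ctsl at the TSS was -0.36 to 0.75 leaving out 1. Ctsl at the TES kept its call in all alternatives, with log2 fold changes of 1.54 to 2.17. With the replicate block Irf8 in the gene body had an adjusted p of 0.238. Irf8 at the TSS passed with DESeq2 (0.0454) and depth class (0.0364), and Ctsl in the gene body with DESeq2 (0.0440).

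Genes called at the TSS, 43, numbered 107 with joint scaling, 95 with DESeq2, 100 with the replicate block, 75 with the mouse number prefix, 158 with depth class and 5 to 84 leaving out 1 library (84, 14 and 5 without knockout replicates 1, 2 and 3, and 14 and 20 without WT replicates 1 and 2). In the gene body, 32 became 0 with joint scaling, the replicate block, the prefix and no low-count libraries, 179 with DESeq2, 95 with depth class and 0 to 37 leaving out 1 (0 without any 1 knockout library or WT replicate 1, and 12 without WT replicate 3). At the TES, 116 became 61 with joint scaling, 194 with the replicate block, 184 with depth class, 177 without the low-count libraries and 73 to 148 leaving out 1 (73 without knockout replicate 2). For the TSS ratio 0 became 27 with depth class and stayed 0 leaving out 1. For the TES ratio 2 became 0 with RLE, gene body scaling, limma and the replicate block, 9 with depth class and 0 to 15 leaving out 1 (0 without knockout replicates 2 or 3 or WT replicate 1, and 15 without WT replicate 3). The cause of these shifts was not tested. Same-numbered libraries correlated in their deviations at 0.358, 0.270 and 0.214 (TSS, gene body, TES) for number 3, at 0.441, 0.080 and 0.030 for number 1 and at -0.213, -0.582 and -0.308 for number 2. In no region did all 3 pairs exceed 0.1, nor did every library correlate best with its own number, so the block was not taken as a pairing. Leaving out the low-count libraries was chosen after seeing the data, and it leaves 1 WT library, assumed to vary like the others. Few reads at the TSS limit what could be detected there.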

Other observations

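H2-Q6 and H2-Q7, class I genes of the H2 complex chosen after their values were seen, were lowest in replicate 3 of both genotypes. In the gene body H2-Q6 had 14.0, 11.1 and 4.29 CPM in knockout replicates 1, 2 and 3, against 12.3, 17.5 and 3.39 CPM in WT replicates 1, 2 and 3. H2-Q7 had 12.8, 11.6 and 3.40 CPM in the knockout libraries, against 10.2, 15.5 and 2.94 CPM in the WT libraries. Replicate 3 was also lowest in each genotype for H2-Q6 at the TSS, with 41.7, 49.0 and 12.1 CPM in the knockout libraries, against 37.0, 31.0 and 6.08 CPM in the WT libraries. These genes are near-identical copies, so reads may be split between them. WT replicate 3 had the highest gene body CPM of the WT libraries for Cd74, H2-Aa and H2-Eb1. H2 haplotypes of the mice are not given in the labels.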
